A study of Mus musculus with 8 samples.

Results

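The 9 genes described here, Pck1, Fbp1, Pklr, Ppargc1a, Igfbp1, Irs1, Irs2, Foxo1 and Gys2, encode enzymes and regulators of glucose production, glucose breakdown and insulin signalling in the liver. They were chosen by gene symbol from the 56691 genes of the deposited table, and all 9 were found in 1 row each. The liver RNA came from wild-type C57BL/6J mice aged 6 weeks, all kept for 4 weeks on HFD-CDAA, a diet rich in fat and lacking choline that serves as a model of steatohepatitis. In 4 libraries (plive-Con) the mice had received a control plasmid by hydrodynamic tail vein injection, which drives plasmid into liver cells with a large, fast volume, and in 4 libraries (plive-Tet1) a plasmid for Tet1, a dioxygenase that starts the removal of methyl groups from DNA. All animals were killed after a short fast whose length the labels do not give. The labels also do not give the promoter of the plasmid, the sex of the mice or whether every library had its own mouse, and the p-values therefore cover only the spread between these libraries, which may be technical. Below, a liver means the liver RNA of 1 library and not a mouse known to be separate.

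Titles placed the libraries in the groups, since the treatment field of plive-Tet1 2, 3 and 4 names Tet2, Tet3 and Tet4. Reads on Tet1 were few under both labels, 21 counts over the plive-Con libraries and 34 over the plive-Tet1 libraries. Library totals ranged from 15885113 to 19850800 counts, and mitochondrial genes took from 3.23% to 8.63% of them. Of the 5 hepatocyte markers found, all were read in every library, and their summed level (CPM, counts scaled to a common library size) was between 66501 and 85898 with plive-Con and between 60709 and 84475 with plive-Tet1. Fat cells also use Pck1 and Ppargc1a, and 4 of 5 adipocyte markers had 0 counts in every library, while Cfd stayed at or below 0.201 CPM.

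As background, insulin binds its receptor on hepatocytes, and the receptor phosphorylates the adaptor proteins IRS1 and IRS2, which recruit the kinases that activate AKT. AKT phosphorylates FOXO1, which then leaves the nucleus and stops driving Igfbp1 and the genes of glucose synthesis. In fasting, insulin is low and glucagon raises cAMP, so that FOXO1 and CREB, with the coactivator PGC-1alpha (the product of Ppargc1a), drive glucose synthesis, whereas glycolysis and glycogen storage belong to the fed state.

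Promoter sequence is given for Igfbp1, Pck1 and Ppargc1a, which are among the genes whose values in plive-Con 4 exceeded those in every other liver. It is also given for both IRS genes, whose matches lie close together. RefSeq windows of 300 bases, from 250 before to 50 after the start on GRCm38.p6, were found for 8 of the 9 genes. Foxo1 and Gys2 were also highest in plive-Con 4, but the Foxo1 window held none of the motifs below and Gys2 had no window. A link between motifs and the plive-Con 4 values was not tested. The motifs searched on both strands were the insulin response element core CAAAACA, the forkhead motif GTAAACA, the full cAMP response element TGACGTCA, its core TGACG, which also lies inside the full element, and the E-box CACGTG. Capitals mark the matches. The Igfbp1 window (chr11:7197537-7197836, plus strand), the Pck1 window (chr2:173152823-173153122, plus strand) and the Ppargc1a window (chr5:51567676-51567975, minus strand) are given 5′ to 3′ in full.
Igfbp1: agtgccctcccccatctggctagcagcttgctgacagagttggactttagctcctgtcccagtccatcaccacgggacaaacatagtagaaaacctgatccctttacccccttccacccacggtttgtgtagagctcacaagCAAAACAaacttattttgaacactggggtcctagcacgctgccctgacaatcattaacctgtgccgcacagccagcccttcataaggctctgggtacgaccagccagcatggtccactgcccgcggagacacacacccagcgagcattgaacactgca
Pck1: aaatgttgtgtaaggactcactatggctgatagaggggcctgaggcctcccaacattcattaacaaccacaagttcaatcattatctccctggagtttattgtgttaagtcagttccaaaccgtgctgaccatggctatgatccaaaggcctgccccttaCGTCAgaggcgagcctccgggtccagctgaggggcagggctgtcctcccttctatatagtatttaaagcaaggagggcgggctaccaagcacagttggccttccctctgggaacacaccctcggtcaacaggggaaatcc
Ppargc1a: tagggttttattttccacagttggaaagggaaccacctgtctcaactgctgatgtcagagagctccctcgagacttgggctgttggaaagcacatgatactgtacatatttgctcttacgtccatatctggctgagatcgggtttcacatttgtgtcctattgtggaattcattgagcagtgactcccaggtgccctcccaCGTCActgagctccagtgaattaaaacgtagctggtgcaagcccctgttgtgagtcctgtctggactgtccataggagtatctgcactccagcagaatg
Igfbp1 held the insulin response element core from 108 to 102 bases before its start. Pck1 held the cAMP element core, on the other strand, from 90 to 86 bases before its start, and Ppargc1a held it from 49 to 45 bases before. The insulin response core was present in 6.29% of all 32817 mouse windows and the cAMP core in 20.8%. The IRS genes had an E-box beside an insulin response core, as these stretches of 80 bases show (Irs1, chr1:82291505-82291584, and Irs2, chr8:11008924-11009003, both on the minus strand).
Irs1: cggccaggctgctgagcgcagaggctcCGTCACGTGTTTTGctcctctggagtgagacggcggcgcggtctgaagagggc
Irs2: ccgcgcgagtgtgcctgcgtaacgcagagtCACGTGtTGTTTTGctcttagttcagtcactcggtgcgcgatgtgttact
In Irs1 the cAMP core, the E-box and the insulin response core overlap in the single capital run, and in Irs2 1 base separates the E-box from the insulin response core. Irs1 held another insulin response core from 32 to 26 bases before its start. An E-box was present in 7.15% of all windows. Of the 8 genes with a window, none held the forkhead motif (3.65% of all windows) or the full cAMP element (1.79%), and Foxo1, Fbp1 and Pklr held none of the 5 motifs. A match is a string of letters and no measure of binding.

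Per length, the 9 genes spanned a wide range of expression in these livers. On the FPKM scale (counts scaled to exonic length and library total), Pck1 was the highest at a mean of 687 ± 232 (SD over 8 libraries), followed by Fbp1 at 431 ± 64.0 and Igfbp1 at 252 ± 196. Gys2 stood at 72.3 ± 19.5 FPKM and Pklr at 30.9 ± 7.55 FPKM. Irs2 (6.996 ± 1.20 FPKM), Foxo1 (4.71 ± 1.74 FPKM), Ppargc1a (1.47 ± 1.00 FPKM) and Irs1 (0.641 ± 0.166 FPKM) were the low end. The ranges of Gys2, Pklr and Irs2 were separate, while each of the other neighbours in this order overlapped over the libraries. Enzymes and the secreted protein IGFBP1 thus lay above the signalling and transcription genes. Pck1 was above Fbp1 in 7 of 8 libraries, and plive-Con 1 was the exception with a ratio of 0.971. Irs2 was above Irs1 in every library, by a ratio of FPKM between 7.06 in plive-Tet1 4 and 20.9 in plive-Con 4, with means of 13.6 ± 5.25 (SD, n = 4) for plive-Con and 9.78 ± 2.16 (SD, n = 4) for plive-Tet1.

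Setting the plive-Tet1 livers against the plive-Con livers asked whether the Tet1 plasmid went with a change in these genes on this diet. Gys2, the liver glycogen synthase, was the gene with the clearest gap between the groups, with lower values in the plive-Tet1 livers. By SD of CPM, Pck1, Fbp1, Irs1, Irs2 and Foxo1 varied more within each group than the group means differed. Ppargc1a and Igfbp1 did so only within plive-Con, and Pklr only within plive-Tet1. The plive-Tet1 values of Igfbp1 lay close together. None of the 9 genes passed the test: the quasi-likelihood test of edgeR, adjusted over 14533 genes by Benjamini-Hochberg, called 0 of them, on a background of 0% of all genes called higher and 0% called lower at an adjusted p of 0.05. All 9 genes passed the filter on low counts. An unadjusted p under 0.05 was reached by 1 of the 9, Gys2, and by 591 genes or 4.07% of all tested (1.91% with a higher and 2.16% with a lower value). DESeq2 called 0 of the 9 and 11 genes (0.0757%) in all, and the smallest DESeq2 adjusted p among the 9 was 0.431. In none of the 9 did the CPM values of the groups separate fully, which they did in 2.28% of genes tested. The value was lower with plive-Tet1 in 7 of the 9 genes, and 48% of all tested genes had a lower value. In bulk liver RNA, fewer cells of a type and less RNA per cell cannot be told apart.

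**Figure D1:**
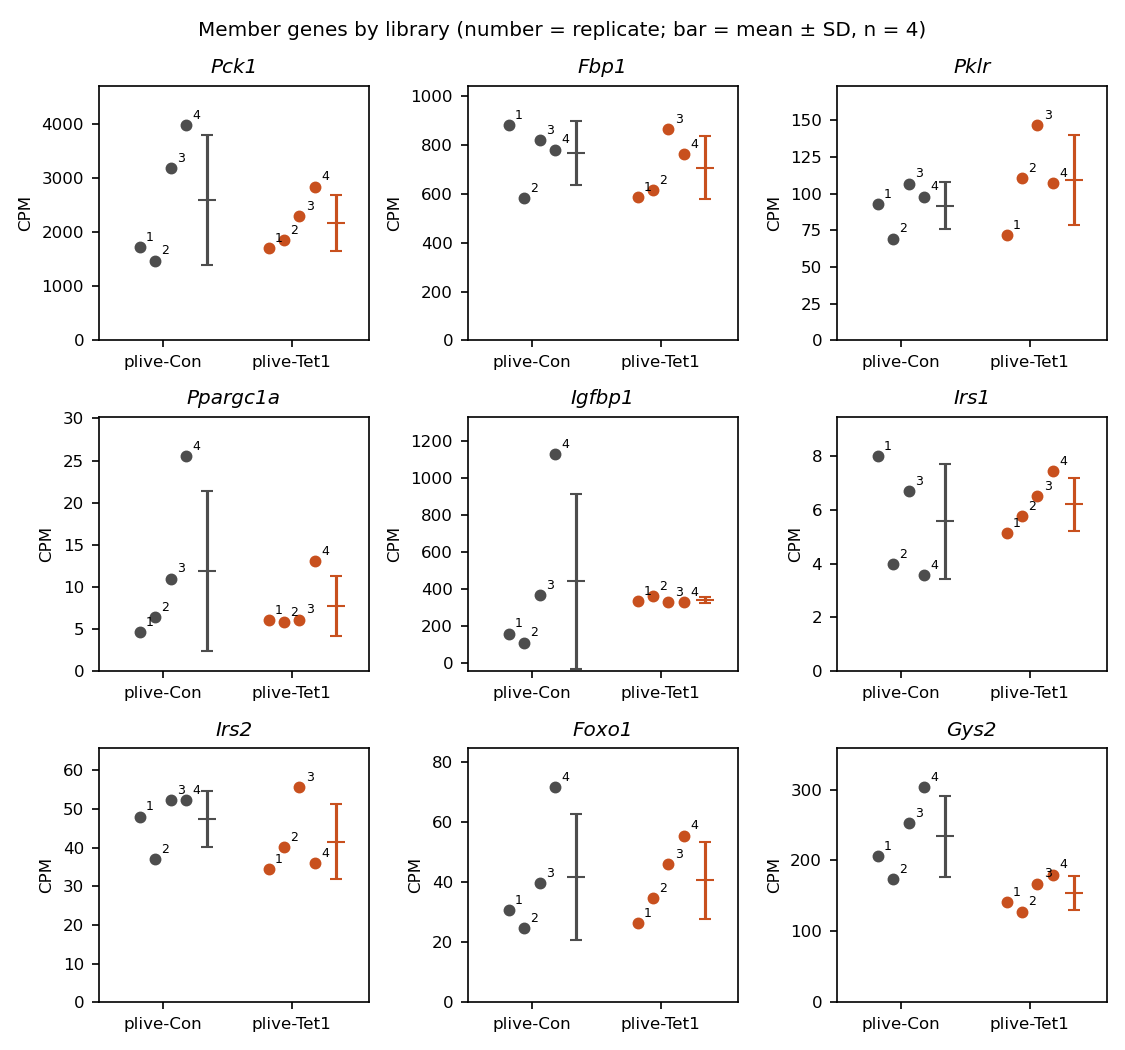
Level in CPM (vertical axes, linear) of the 9 genes in each library, with the replicate number beside each point and the mean ± SD of 4 libraries at the right of each group. Igfbp1 spans 109 to 1128 CPM in the plive-Con livers and 329 to 362 CPM in the others, and 3 of 4 plive-Tet1 values of Gys2 lie below the lowest plive-Con value of 173 CPM.

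Glycogen synthesis was represented by Gys2 (ENSMUSG00000030244, GRCm39 chromosome 6, 142368339 to 142418835, minus strand), the liver form of the enzyme that lengthens glycogen chains. It measured 206, 173, 252 and 304 CPM in plive-Con 1 to 4 and 141, 128, 167 and 180.0 CPM in plive-Tet1 1 to 4. Only plive-Tet1 4 lay above the lowest control, plive-Con 2. The plive-Con mean was 234 ± 56.8 CPM and the plive-Tet1 mean 154 ± 23.8 CPM (SD, n = 4 each), and all 4 plive-Tet1 livers lay below the plive-Con mean. Its log2 fold change (here and throughout, plive-Tet1 over plive-Con) was -0.60 ± 0.18 (SE) with a 95% interval from -0.98 to -0.22, an unadjusted edgeR p of 0.00474 and an adjusted p of 0.999995. Leaving out each library in turn kept the value between -0.72 and -0.45. For the sums of other marker lists given next, the ranges of the groups overlapped, and no test was run on them. For sinusoidal endothelial cells (5 of 5 markers read) the plive-Con livers held 184 to 228 CPM and the plive-Tet1 livers 133 to 189.7 CPM, for red cells (5 of 5) 272 to 400.2 and 192 to 284 CPM, and for macrophages (6 of 6) 581 to 845 and 769.6 to 940.5 CPM. B cell markers (4 of 4) summed to 13.02 to 50.8 and 10.8 to 20.1 CPM and T and NK cell markers (4 of 4) to 7.33 to 22.5 and 7.77 to 10.3 CPM. Not all markers of a list moved alike: of the macrophage genes, Gpnmb held 172 to 450.3 CPM with plive-Con and 367 to 530.5 CPM with plive-Tet1, but Clec4f, a Kupffer cell marker, 153 to 231 and 133 to 171 CPM, and the red cell gene Alas2 overlapped at 36.7 to 67.9 and 49.99 to 78.8 CPM. Their part in the Gys2 value was not tested. Periportal and pericentral hepatocyte markers overlapped between the groups: 6 periportal genes summed to between 2612 and 4165 CPM with plive-Con and between 2858 and 3991 CPM with plive-Tet1, and 6 pericentral genes to between 7641 and 11722 CPM and between 7445 and 9423 CPM.

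Of the signalling adaptors, Irs2 (ENSMUSG00000038894, chromosome 8, 11034681 to 11058458, minus strand), which FOXO1 induces in fasting and which carries much of hepatic insulin signalling, measured 48.0, 36.9, 52.2 and 52.2 CPM with plive-Con. With plive-Tet1 it measured 34.5, 40.0, 55.7 and 36.01 CPM. Both the lowest and the highest liver, plive-Tet1 1 and plive-Tet1 3, were in the plive-Tet1 group. Its log2 fold change was -0.19 (95% interval -0.55 to 0.18). It was -0.38 (95% interval -0.70 to -0.06) without plive-Tet1 3 and -0.11 without plive-Tet1 1. The edgeR p without plive-Tet1 3 was 0.0224 unadjusted and 0.966491 adjusted. Irs1 (ENSMUSG00000055980, chromosome 1, 82210822 to 82269137, minus strand), the other main adaptor, was scarce, at 8.00, 3.98, 6.69 and 3.58 CPM with plive-Con and 5.13, 5.76, 6.49 and 7.42 CPM with plive-Tet1. The plive-Con livers held both the highest and the lowest values of Irs1. The log2 fold change of Irs1 was 0.16 (95% interval -0.40 to 0.71), and it was -0.0036 without plive-Con 4 and 0.39 without plive-Con 1.

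Of the transcriptional regulators, Foxo1 (ENSMUSG00000044167, chromosome 3, 52175757 to 52260642, plus strand), the forkhead factor that insulin switches off, measured 30.6, 24.6, 39.5 and 71.7 CPM with plive-Con. It measured 26.3, 34.7, 45.9 and 55.5 CPM with plive-Tet1. The means lay at 41.6 ± 20.9 and 40.6 ± 12.8 CPM (SD, n = 4 each), closer than the spread within either group, and plive-Con 4 was the highest liver. The log2 fold change was -0.04 (95% interval -0.68 to 0.61), and its sign changed under 8 other settings. Ppargc1a (ENSMUSG00000029167, chromosome 5, 51611592 to 51725068, minus strand), the coactivator that fasting induces, measured 4.63, 6.45, 10.99 and 25.6 CPM with plive-Con and 6.08, 5.81, 6.14 and 13.1 CPM with plive-Tet1. Replicate 4 of each group was its highest liver. The log2 fold change of Ppargc1a was -0.61 (95% interval -1.58 to 0.36) and became 0.08 (-0.64 to 0.80) without plive-Con 4.

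Of the enzymes of glucose synthesis, Pck1 (ENSMUSG00000027513, chromosome 2, 172994841 to 173001066, plus strand), which turns oxaloacetate into phosphoenolpyruvate, measured 1726, 1471, 3178 and 3979 CPM with plive-Con. With plive-Tet1 it measured 1700.3, 1848, 2299.9 and 2839 CPM. The plive-Tet1 livers lay within the plive-Con range, with plive-Con 2 the lowest and plive-Con 4 the highest liver. The log2 fold change was -0.25 (95% interval -0.88 to 0.37), and 0.03 (-0.52 to 0.58) without plive-Con 4. Fbp1 (ENSMUSG00000069805, chromosome 13, 63012567 to 63036096, minus strand), which removes a phosphate from fructose 1,6-bisphosphate, varied less, at 882, 582, 820.2 and 780.4 CPM with plive-Con and 586, 616, 864 and 763 CPM with plive-Tet1. Its groups overlapped over nearly their whole ranges, with a log2 fold change of -0.12 (95% interval -0.48 to 0.25). Leaving out 1 library gave values from -0.25 (without plive-Tet1 3) to -0.04 (without plive-Tet1 1 or plive-Con 1).

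Igfbp1 (ENSMUSG00000020429, chromosome 11, 7147782 to 7152546, plus strand), a secreted binder of insulin-like growth factors that insulin represses, differed most in its spread. It measured 158, 109, 368.5 and 1128 CPM with plive-Con and 334.5, 362, 330.5 and 329 CPM with plive-Tet1. The highest of the 8 livers exceeded the lowest 10.4-fold, the widest such ratio of the 9 genes, and both were plive-Con livers. Within plive-Con the SD of its log2 CPM was 1.497, larger than in 99.7% of genes tested, whereas within plive-Tet1 it was 0.0635, larger than in 2.88% of them. The median SD over all genes tested was 0.247 in plive-Con and 0.233 in plive-Tet1. The difference in spread between the groups was not tested. The plive-Con mean was 441 ± 472 CPM and the plive-Tet1 mean 339 ± 15.2 CPM (SD, n = 4 each), and the log2 fold change was -0.38 (95% interval -1.53 to 0.77). Without plive-Con 4 the plive-Con mean was 212 ± 138 CPM (SD, n = 3) and the log2 fold change turned to 0.68 (95% interval 0.01 to 1.34), with an unadjusted edgeR p of 0.0458 and an adjusted p of 0.999944.

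Glycolysis was represented by Pklr (ENSMUSG00000041237, chromosome 3, 89043449 to 89054091, plus strand), the liver pyruvate kinase, which glucose and insulin induce. It measured 93.0, 69.3, 106.9 and 97.8 CPM with plive-Con and 71.6, 110.4, 147 and 107.3 CPM with plive-Tet1, so that plive-Tet1 3 was the highest liver and plive-Con 2 and plive-Tet1 1 were the lowest. The log2 fold change was 0.25 (95% interval -0.18 to 0.67). It was 0.05 without plive-Tet1 3 and 0.41 (95% interval 0.04 to 0.78) without plive-Tet1 1. The edgeR p without plive-Tet1 1 was 0.0345 unadjusted and 0.996827 adjusted. Hcn3, on the opposite strand, overlaps Pklr and had at most 122 counts, and reads of the pair cannot be told apart if strand was not used. The ratio of Pck1 to Pklr, as FPKM, was between 17.5 and 38.4 with plive-Con (26.0 ± 9.40) and between 14.8 and 25.0 with plive-Tet1 (19.5 ± 4.98; SD, n = 4 each).

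**Figure D2:**
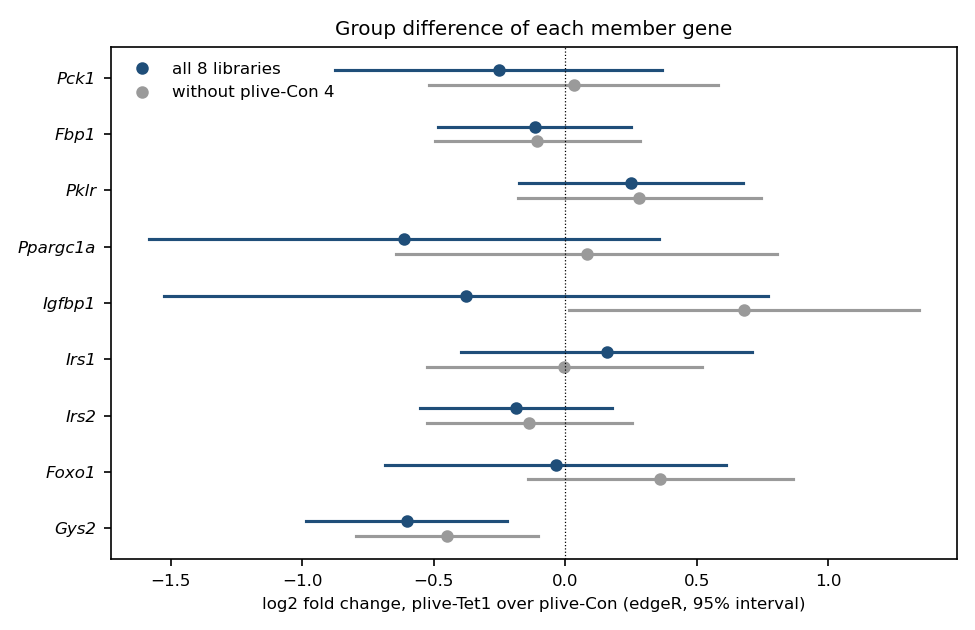
Log2 ratio of plive-Tet1 to plive-Con for each gene (horizontal axis; points, edgeR estimates; lines, 95% intervals), with all 8 libraries in blue and without plive-Con 4 in grey. With all libraries the interval of Gys2, from -0.98 to -0.22, is the only one that does not span 0, and the value of Igfbp1 moves from -0.38 to 0.68 without that library.

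The library plive-Con 4 held the top values of several of these genes. It was the highest of the 8 livers for 5 of the 9 genes, Pck1, Ppargc1a, Igfbp1, Foxo1 and Gys2, and it is the highest library for 18.2% of all genes tested. For Pck1, Ppargc1a, Igfbp1 and Foxo1 it exceeded 2 times the median of the other 7 livers, by ratios of 2.15, 4.16, 3.41 and 2.07, which held for 2.26% of genes tested. Over the 9 genes, its gap to the next plive-Con liver was at most 0.745 of the range of that group (Igfbp1). This is under the 0.829 at which a library of 4 counts as an outlier by Dixon's test. The other lists were not searched gene by gene with this test. Of their genes, Got1, named here for its high value, measured 680.5 CPM in plive-Con 4. It measured 165 to 214 CPM in the other plive-Con livers, which puts its gap above 0.829 of the range. The library plive-Con 4 was also the lowest for Irs1. Without it the sign of the log2 fold change turned in 5 of the 9 genes (Pck1, Ppargc1a, Igfbp1, Foxo1 and Irs1), leaving 4 lower and 5 higher values. Its summed hepatocyte markers, 75699 CPM, lay inside the range of the other livers, and its mitochondrial share of 3.31% was near the lowest, 3.23%. It was the lowest of the 8 livers for summed macrophage (581 CPM) and stellate cell markers (378 CPM). For B cell markers it was the highest (50.8 CPM), of which Igkc alone held 45.1 CPM. Markers of a list did not move alike in plive-Con 4. Of the macrophage genes, Gpnmb (172 CPM), Adgre1 and Cd68 were lowest there, but Clec4f (219 CPM), Vsig4 and Trem2 were not. Of the hepatocyte genes, Apoa1 and Cps1 were highest and Serpina1c was lowest there. Apart from adipocyte markers, the sums of plive-Con 4 for the remaining lists lay inside the range of the other livers.

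Across the 8 livers, Pck1, Foxo1, Ppargc1a and Igfbp1 had positive pairwise correlations, carried to different degrees by the livers at the ends of the range. All 6 pairs of these 4 genes reached an exact permutation p under 0.05, as did 9 of the 36 pairs of the 9 genes, but none passed adjustment over the 36 pairs (0% called). Without plive-Con 4, only Pck1 with Foxo1 and Pck1 with Ppargc1a of these 6 still reached an exact permutation p under 0.05. Pck1 with Foxo1 had a Pearson r of 0.91 (exact permutation p = 0.00218, adjusted p = 0.0690) and a Spearman rho of 0.93 (exact permutation p = 0.00223, adjusted p = 0.0804) over n = 8 libraries, two-sided. Of the 14532 other genes tested, 0.743% had an r with Pck1 at least as high, and 6.58% had an r with Pck1 of at least 0.8 in size. Without plive-Con 4 and plive-Con 3, the libraries farthest from the median of Pck1, r was 0.98 for Pck1 with Foxo1. Without plive-Con 4 and plive-Con 2, the libraries farthest from the median of Foxo1, it was 0.78 (exact permutation p = 0.0778), and without plive-Con 4 alone 0.84 (exact permutation p = 0.0222).

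Pck1 with Ppargc1a had r = 0.90 (exact permutation p = 0.00399, adjusted p = 0.0690) and rho = 0.67 (exact permutation p = 0.0831, adjusted p = 0.513), and r was 0.75 without plive-Con 4 and 3 (exact permutation p = 0.117) and 0.82 without plive-Con 4 alone (exact permutation p = 0.0319). Pck1 with Igfbp1 had r = 0.82 (exact permutation p = 0.00575, adjusted p = 0.0690) and rho = 0.71 (exact permutation p = 0.0576, adjusted p = 0.513), and r was 0.63 without the same livers (exact permutation p = 0.157). Without plive-Con 4 alone, r of Pck1 with Igfbp1 was 0.66 (exact permutation p = 0.0843). The relations of Pck1 with Ppargc1a and with Igfbp1 rest in part on plive-Con 4 and 3. Ppargc1a with Foxo1 (r = 0.83, rho = 0.64), Igfbp1 with Foxo1 (r = 0.80, rho = 0.55) and Ppargc1a with Igfbp1 (r = 0.77, rho = 0.36) had exact permutation p of 0.00965, 0.0163 and 0.0308 for r and of 0.0962, 0.171 and 0.389 for rho. Their r was 0.33, 0.33 and 0.39 without the 2 libraries farthest from the median of the first gene named. Without the 2 farthest from the median of the second gene, r was 0.70, 0.33 and 0.53. Without plive-Con 4 alone, r was 0.65, 0.60 and 0.42 (exact permutation p of 0.118, 0.146 and 0.327). These 3 relations thus rest to different degrees on the livers left out. The adjusted p of the 3 pairs were 0.0868, 0.118 and 0.156 for r and 0.513, 0.513 and 0.592 for rho. Within plive-Tet1, Igfbp1 stayed near 339 CPM while Pck1 went from 1700.3 to 2839 CPM.

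Gys2 varied with Pck1 more closely once each gene was centred on its group mean. Pooled over the 8 livers, r was 0.75 (exact permutation p = 0.0349, adjusted p = 0.156) and rho 0.62 (exact permutation p = 0.115, adjusted p = 0.513), and r was 0.14 without plive-Con 4 and 3. With each gene centred on its group mean, r was 0.96 (exact permutation p = 0.00694 over 576 pairings within groups, adjusted p = 0.0833 over the 36 pairs), which did not pass. The smallest exact permutation p these pairings can give is 0.00174, too large for a single pair to pass adjustment alone. Centring also raised the r of Gys2 with Foxo1 (0.59 to 0.92), Igfbp1 (0.44 to 0.81) and Ppargc1a (0.73 to 0.84). It lowered that with Irs2 (0.62 to 0.55), and none of these passed. The centred r was not taken without plive-Con 4. Whether Gys2 at a given level of Pck1 differed between the groups was not tested. Gys2 with Ppargc1a had r = 0.73 (exact permutation p = 0.0390, adjusted p = 0.156) and rho = 0.60 (exact permutation p = 0.132, adjusted p = 0.513). The r of this pair was 0.53 without the 2 libraries farthest from the median of Ppargc1a. It was 0.08 without the 2 farthest from the median of Gys2. Fbp1 with Irs2, the remaining pair, had r = 0.80 (exact permutation p = 0.0322, adjusted p = 0.156) and rho = 0.74 (exact permutation p = 0.0458, adjusted p = 0.513), and 0.62 without plive-Con 2 and plive-Tet1 1 (exact permutation p = 0.171).

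**Figure D3:**
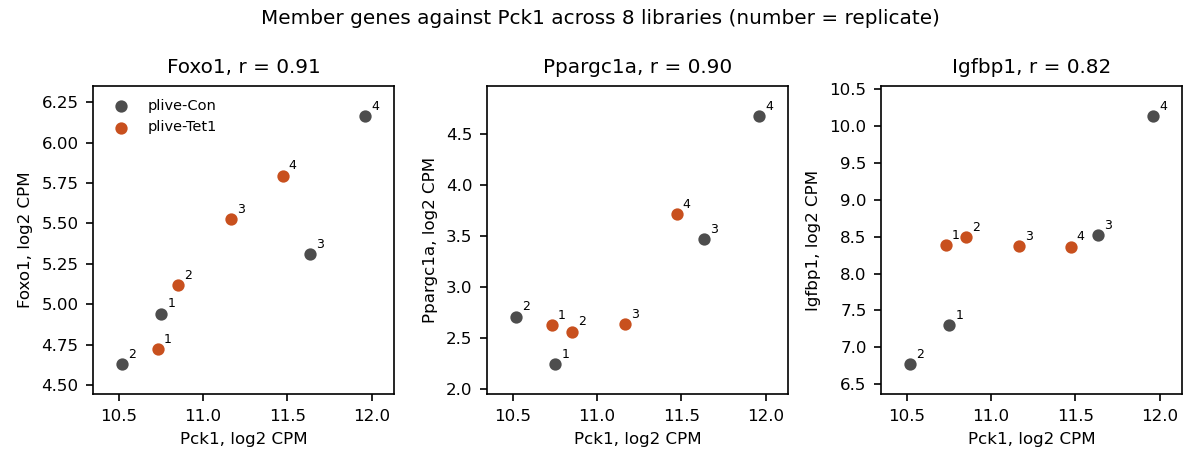
Log2 CPM of Foxo1, Ppargc1a and Igfbp1 (vertical axes) against Pck1 (horizontal axes) in the 8 libraries, grey for plive-Con and orange for plive-Tet1, with replicate numbers. Pearson r is 0.91, 0.90 and 0.82, plive-Con 4 lies at the upper right in all 3 panels, and the plive-Tet1 points of Igfbp1 form a flat row.

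The genes whose pattern over the 8 libraries was most like that of each gene, by Pearson r of log2 CPM among 14532 genes, are given as a description. For Pck1 they were Stard7 (r = 0.98) and Gm15889 (0.98), for Ppargc1a Them4 (0.99) and Glrx (0.98), for Foxo1 Klf13 (0.98) and Cdip1 (0.97), and for Igfbp1 Fam20a (0.97) and Vdac1 (0.97). All 8 of these were highest in plive-Con 4. Gys2 was most like Inmt (0.98), which also had lower values with plive-Tet1 (log2 fold change -0.87), and Zswim7 (0.98). Fbp1 was most like Gm5424 (0.98) and Tbc1d30 (0.95), Pklr like Kif13b (0.99) and Dele1 (0.98), and Irs2 like Aspscr1 (0.99) and Tst (0.99), and all 6 were highest in plive-Tet1 3. Irs1 was most like Pzp (0.99) and Mug1 (0.98), highest in plive-Con 1.

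Other genes of the pathway, from 6 lists, also gave 0 calls by edgeR after adjustment. Of 13 tested genes of glucose synthesis, 11 had a lower and 2 a higher value with plive-Tet1, with a median log2 fold change of -0.08 beside 0.01 over all genes tested, and 0 had an unadjusted p under 0.05. Without plive-Con 4, the highest liver for 10 of the 13, the split turned to 4 lower and 9 higher with a median of 0.07. The 3 with the smallest p were Gpt, an alanine aminotransferase (log2 fold change -0.30, 95% interval -0.65 to 0.05), Slc37a4, the transporter of glucose 6-phosphate into the endoplasmic reticulum (-0.44, -1.01 to 0.13), and Got1, an aspartate aminotransferase (-0.57, -1.38 to 0.24). Got1 stood at 680.5 CPM in plive-Con 4 and at 165 to 262 CPM in the other livers, and its value was 0.13 without that library, while that of Slc37a4 was -0.15.

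Glycolysis and glucose uptake had 11 higher and 12 lower values among 23 tested genes and a median of -0.0042, and 0 of them had an unadjusted edgeR p under 0.05. Pfkfb3, which makes the activator of phosphofructokinase, had the smallest p. It measured 17.0, 18.1, 23.7 and 19.0 CPM with plive-Con and 20.2, 22.1, 30.1 and 25.9 CPM with plive-Tet1. Of the controls, plive-Con 3 lay within the plive-Tet1 values and the others lay below them. The log2 fold change of Pfkfb3 was 0.34 (95% interval -0.0013 to 0.68). The phosphoglycerate mutase Pgam1 had 0.28 (-0.08 to 0.64), or 0.13 without plive-Tet1 3, and Pfkfb1, the liver form of the enzyme encoded by Pfkfb3, -0.23 (-0.61 to 0.15), which was -0.04 without plive-Con 4, its highest liver.

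Around Gys2, the glycogen list had 12 higher and 3 lower values among 15 tested genes, with a median of 0.07 and 0 at an unadjusted p under 0.05. Without plive-Con 4 the split was 8 higher and 7 lower with a median of 0.02. Ppp1r3g, a glycogen-targeting subunit of protein phosphatase 1, had a log2 fold change of -1.70 (95% interval -3.40 to 0.01) that was -0.18 without plive-Con 4, where it measured 170 CPM against at most 46.0 CPM elsewhere. Ppp1r3b, another such subunit, had 0.39 (-0.33 to 1.10), but 0.71 without plive-Con 4 and 0.13 without plive-Tet1 4, and Gyg, the primer of glycogen, 0.22 (-0.17 to 0.61), or 0.09 without plive-Con 3. Insulin signalling genes had 18 higher and 10 lower values among 28 tested, a median of 0.04 and 0 at an unadjusted p under 0.05. The smallest p belonged to Socs3, an inhibitor of cytokine and insulin receptor signalling (-0.53, -1.25 to 0.19), Rictor, a subunit of the kinase complex that phosphorylates AKT (-0.31, -0.73 to 0.11), and Tsc1, an inhibitor of mTOR complex 1 (0.17, -0.08 to 0.42). Socs3 measured 32.3 CPM in plive-Con 2 and at most 20.5 CPM elsewhere, and its value was -0.13 without that library.

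Regulators of the fasting response had 6 higher and 13 lower values among 19 tested genes, with a median of -0.08. An unadjusted p under 0.05 was reached by 2, both lower: Sik1, a kinase that restrains CREB coactivators (-0.65, -1.28 to -0.03), and Esrra, a nuclear receptor partner of PGC-1alpha (-0.33, -0.66 to -0.01). Sik1 measured 75.4 CPM in plive-Con 4 and 23.0 to 36.4 CPM in the other livers, and had -0.17 without it. The count of 2 became 0 without plive-Con 4, without plive-Tet1 1 or without plive-Tet1 2. Nr0b2, the repressor SHP, had -0.65 (-1.30 to 0.01).

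The clock list, which is shown because clock genes cycle with feeding and hour of the day, had 9 lower and 1 higher value among 10 tested genes and a median of -0.55, which was -0.30 without plive-Con 4 (8 lower, 2 higher). An unadjusted p under 0.05 was reached by 5: Per3 (-1.14), Per2 (-0.70), Dbp (-0.76) and Tef (-0.62) with lower values and Arntl, which encodes BMAL1, with a higher value (1.13), Dbp and Tef being named after their values had been seen. Arntl measured 4.98, 2.71, 2.97 and 1.61 CPM with plive-Con and 6.85, 8.49, 4.58 and 6.96 CPM with plive-Tet1, so that only plive-Con 1 exceeded a plive-Tet1 liver. The smallest edgeR adjusted p was 0.892, for Per3, and DESeq2 called Per3 (adjusted p = 0.0168). Many genes of glucose metabolism cycle over the day, the labels give no hour of killing, and the part of this difference in the value of Gys2 was not tested.

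**Figure D4:**
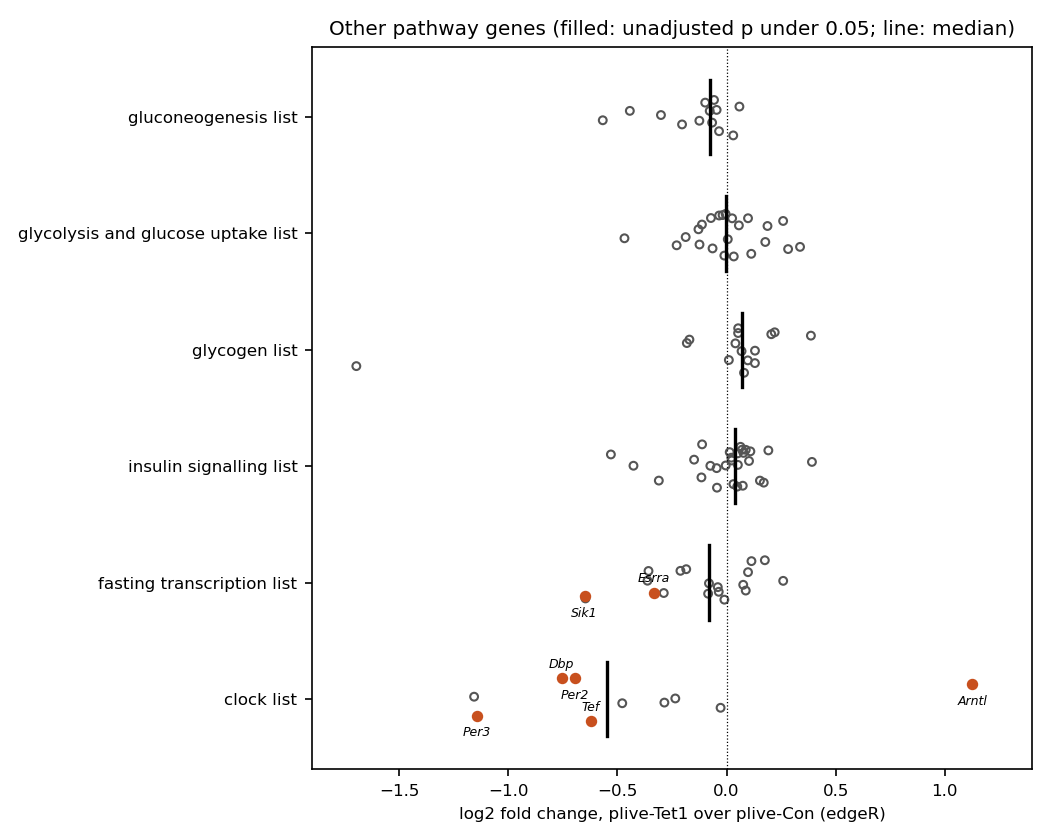
Log2 ratios of plive-Tet1 to plive-Con (horizontal axis), of the tested genes of the 6 other lists, with filled and named points for an unadjusted edgeR p under 0.05 and a black line at each median. Medians lie between -0.08 and 0.07 except for the clock list at -0.55, and Ppp1r3g lies at the far left of the glycogen list at -1.70.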

How the data were processed

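Liver RNA of 8 libraries was sequenced as paired reads, per the labels' protocols. Trimming, alignment and counting used cutadapt 1.9.1, HISAT2 2.2.1 and HTSeq 0.6.1 with GRCm39, per the submitters' processing notes, while the annotation release and strand setting were not given in those sources. The deposited table holds a raw read count for each gene and library, per the file headers. It also holds FPKM values, which the authors' counts and exonic lengths gave to within 0.00500.

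Counts were tested with edgeR 4.0.16 (quasi-likelihood, filterByExpr, TMM, group only, two-sided, Benjamini-Hochberg over 14533 genes, threshold 0.05) in R 4.3.3. Alternatives used DESeq2 1.42.0, limma 3.58.1, other scalings and filters, a replicate block and each library left out. CPM are counts scaled by TMM, and correlations used log2 CPM (prior count 2). Replicates differed beyond sampling noise in all pairs of a group (lowest chi-square over its degrees of freedom 12.9). The fit was tested on simulated data. The genes and lists were chosen with earlier results of these data known, and the lists were then kept as written: all 9 genes, the 3 smallest p of each list and the 2 most alike genes were named. From the glycolysis list, 1 gene is not reported here and was left out of its counts. Aldoa had 2 rows, of which 1 was tested. Promoters came from RefSeq (GRCm38.p6), and its coordinates were not mixed with those of GRCm39.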

Additional observations from a re-analysis of the deposited data

Results flagged for a closer look

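In a group of 4, a library was set aside for a closer look when its gap to the nearest other library exceeded 0.829 of the group's range, which chance gives in about 1 of 20 groups. Of 40 groups examined, over the 9 genes and 11 lists of cell markers, 4 met this. Ppargc1a stood at 13.1 CPM in plive-Tet1 4, above the other 3 plive-Tet1 livers. Igfbp1 stood at 362 CPM in plive-Tet1 2, where the other 3 plive-Tet1 livers lay between 329 and 334.5 CPM. Summed periportal markers were lowest in plive-Con 2, at 2612 CPM, and this liver was also the lowest for 5 of the 9 genes. Summed markers of sinusoidal endothelial cells were highest in plive-Con 1, at 228 CPM.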

How the results depend on the processing

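Gys2 kept its lower value under every alternative (RLE factors, library totals, filters, DESeq2, limma, replicate block, each library left out), with a range of -0.72 to -0.45 without single libraries. Its edgeR adjusted p was 0.0224 when no filter on low counts was used. The same setting gave Ppp1r3g an edgeR adjusted p of 9.4e-16, though its value with the filter was -0.18 without plive-Con 4. It also narrowed the 95% interval of Igfbp1 to -0.74 to -0.06, from -1.53 to 0.77 with the filter. Without that filter, over 28149 genes, edgeR called 33 genes higher and 99 lower, 119 of them also tested with the filter, and 1 of the 9 genes, 6 clock genes, 1 fasting regulator and 1 glycogen gene. DESeq2 called 5 higher, 6 lower and 1 clock gene. The cause was not tested. Signs turned for Foxo1 with library totals (0.0203), limma on log2(FPKM + 0.5) (0.0644) and on log2(FPKM + 1) (0.0556), voom (0.0327) and the replicate block (0.0265). They turned for Igfbp1 with the same limma fits (0.27, 0.26 and 0.22) and the block (0.25). Leaving out 1 library gave -0.22 to 0.36 for Foxo1, -0.70 to 0.68 for Igfbp1, -0.45 to 0.0317 for Pck1, -0.98 to 0.081 for Ppargc1a, -0.0036 to 0.39 for Irs1 and -0.78 to 0.13 for Got1, the positive ends (for Irs1 the negative end) being without plive-Con 4. Of the correlations between the 9 genes, 2 passed with values centred on group means (Pck1 with Foxo1 and Pklr with Irs2), and 0 to 1 without single libraries, against 0 with all. Both centred pairs had the smallest exact permutation p that the pairings within groups can give, 0.00174. At that p a single pair alone could not have passed. Same-numbered libraries deviated together with correlations of -0.04 to 0.07. These few values cannot tell whether the replicate numbers pair samples, and the labels state no pairing. With the replicate block 0 genes were called. Depth limits Irs1, with 60 to 146 counts, most.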
